A study of Mus musculus with 2 samples.

Results

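Zinc, iron and copper handling genes were examined in 3D cultures grown from mouse mammary basal cells, alone (ctrl) or together with M2-like macrophages (M2). The members were taken by gene symbol, with earlier results of these data known, and the rule took 47 of the 49492 genes in the count table. These were 15 rows of the zinc importer family (ZIP, Slc39a, including the pseudogene Slc39a1-ps), 10 zinc exporters (ZnT, Slc30a), 4 metallothioneins, 14 iron genes and 4 copper transport genes. Both groups came from wild-type adult female mammary glands, from which CD24+ CD29 high basal cells without blood, endothelial or erythroid markers were sorted and embedded in matrix gel. According to the study's methods, both groups received a medium with EGF and the supplement ITS, whose contents the methods do not list. The name commonly stands for insulin, transferrin and selenium, so transferrin protein was probably supplied in either culture. The M2 group shared its wells for 11 to 14 days with bone marrow-derived macrophages polarised with IL-4 and IL-13, which sat behind a porous membrane and were renewed during the culture. The study's flow cytometry of such colonies and organoids found mostly luminal cells in both groups. With M2 the basal share was larger and the share of Sca1-high cells among luminal cells smaller. The values below are therefore those of mixed epithelial cells, not of basal cells alone. Each group holds 1 library of colonies or organoids, and the variation from one culture to the next is therefore unknown.

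Zinc, iron and copper are cofactors of many enzymes but are harmful when free, and cells keep them in balance through importers, exporters and binding proteins. ZIP proteins move zinc into the cytosol and ZnT proteins move it out of the cytosol, into vesicles or out of the cell, while metallothioneins bind zinc and copper through their cysteines. Iron travels in blood bound to transferrin (Trf), enters cells through the transferrin receptor (Tfrc), is reduced by STEAP proteins and leaves endosomes through DMT1 (Slc11a2). Surplus iron is stored in ferritin, a shell of heavy (Fth1) and light (Ftl1) subunits, and leaves the cell through ferroportin (Slc40a1), helped by copper-dependent ferroxidases such as ceruloplasmin (Cp). In the lactating mammary gland these systems also supply milk, which contains transferrin and receives zinc through ZnT2 (Slc30a2).

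The ctrl library held 26912610 reads in genes and the M2 library 29413844. The 6 basal markers summed to 7466 CPM in ctrl and 7493 CPM in M2 (CPM, reads scaled to a common library size), with 1, Oxtr, called lower and 0 called higher. This sum hides opposite moves, from 2053 to 2902 CPM for Krt5, 2985 to 2393 for Krt14 and 303 to 66.6 for Oxtr. Trp63, Acta2 and Myh11 moved less. The 6 luminal markers summed to 3646 and 3124 CPM, and 2 of them, the progenitor genes Elf5 and Kit, were called lower. The 10 macrophage markers held 276 and 274 reads in all, most of them from Csf1r (94 and 92) and Cd68 (170 and 165). Only 3 of the 10 had enough reads to be tested, and 0 of these were called. Adgre1, Ptprc, Tyrobp and Fcer1g had 0 reads in both libraries, whereas Itgam had 3 and 9 reads, Mrc1 1 and 5, and the macrophage scavenger receptor gene Cd163, kept in the iron list below, 2 and 30. The 6 fibroblast markers summed to 320.4 and 132.3 CPM, with 1 called higher and 2 lower. The 4 endothelial markers summed to 2.08 and 2.81 CPM, with Pecam1 called higher (33 and 76 reads) and Kdr (11 and 0) and Cdh5 (11 and 2) called lower. The 4 adipocyte markers summed to 2.44 and 0.382 CPM, with 1 called lower. The luminal, fibroblast, endothelial and adipocyte sums and single basal markers moved between the libraries, and their part in the differences below was not tested. In such bulk RNA, more cells of a type and more RNA per cell cannot be told apart.

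To ask whether metal handling differed between the cultures, the reads of each gene were compared with a two-sided exact binomial test, and the log2 difference of M2 over ctrl was given with a 95% interval that covers counting error only. Calls required both a difference of at least 2-fold and an adjusted p under 0.05 over the 19233 genes tested, and this test compares the libraries, not the conditions. Of the 47 members, 39 had at least 10 reads and were tested. Among these, 10 were called higher in M2 (25.6%) and 1 lower (2.56%), where 8.16% of all genes tested were called higher and 6.55% lower. Steap1 and Atp7b, both with few reads, are among the 10. When at least 1 CPM was required in both libraries, 8 members were called higher and 1 lower. At that filter 797 of all genes were called higher and 583 lower. Fewer genes could then be tested, and the shares at that filter were not computed. The median log2 difference was 0.27 over the tested members and -0.0032 over all genes tested. Of the 28 members that were not called, 19 had an adjusted p under 0.05 in the exact binomial test, with differences of at most 0.93 on the log2 scale in either direction. The members held 0.310% of the reads in ctrl and 0.751% in M2. The remaining 8 members were too low to be tested. Slc39a12, Slc30a8, Mt4 and Hamp had 0 reads in both libraries, which allows up to 3 reads, or 0.109 CPM in ctrl and 0.104 CPM in M2. Slc39a5 had 3 and 6 reads in ctrl and M2, Slc30a10 had 1 and 0, Slc30a3 had 0 and 4, and Mt3 had 0 and 3.

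**Figure D1:**
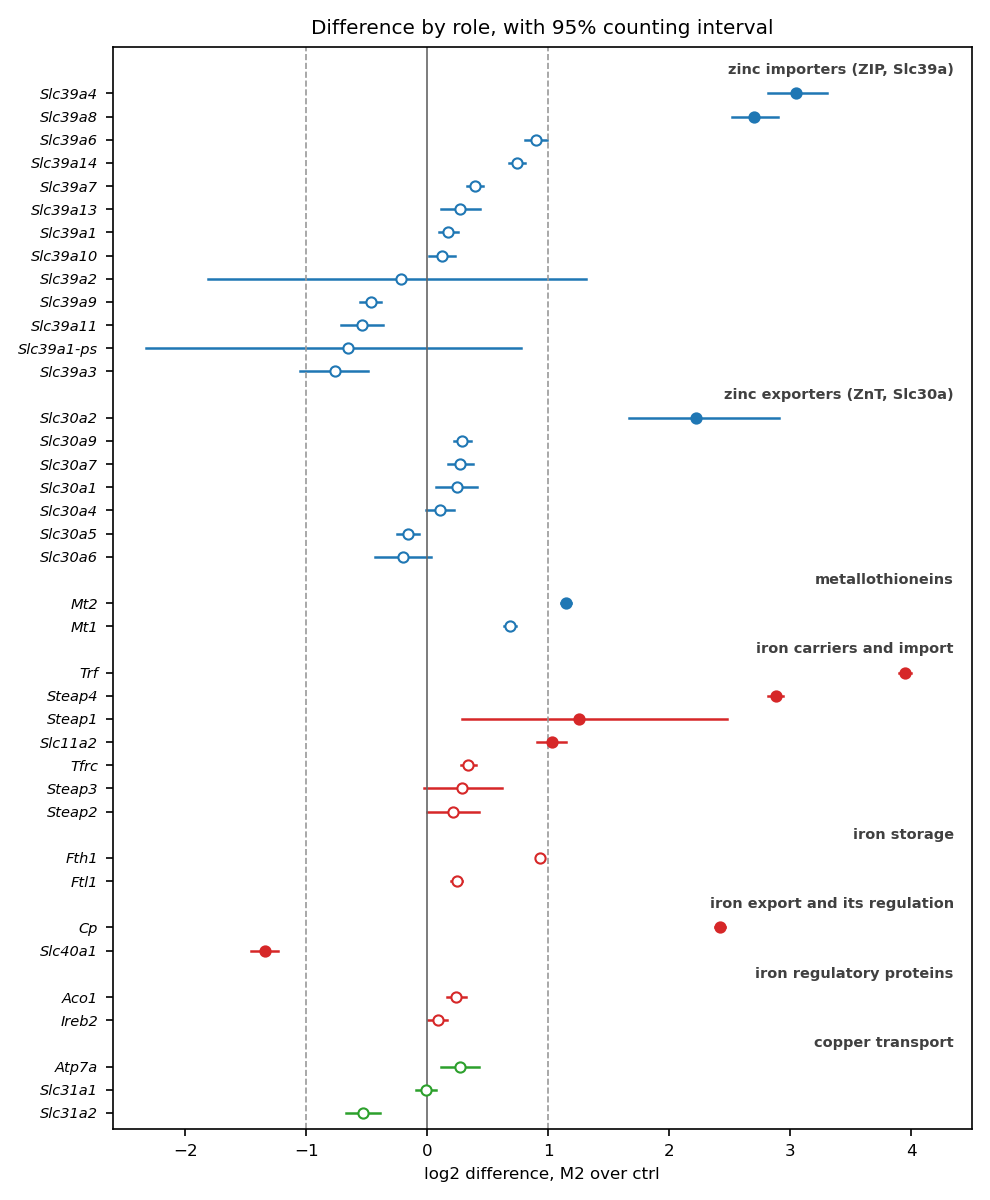
Log2 difference (M2 over ctrl, horizontal axis) of 38 members, grouped by role. Points are the differences of 1 library per group, bars are 95% counting intervals, filled points passed both thresholds, and dashed lines mark a 2-fold difference. Atp7b, with 0 reads in ctrl, is not drawn. Trf, Slc39a4, Steap4 and Slc39a8 lie farthest to the right, and Slc40a1 is the only filled point to the left.

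Of the iron carrier and import genes, Trf, Steap4, Slc11a2 and Steap1 rose in M2. Trf, the plasma iron carrier (chromosome 9, 103204001 to 103230444, GRCm38), counted 4038 reads in ctrl against 65294 in M2. Its level per length was 44.3 RPKM in ctrl and 682 in M2 (RPKM, CPM per kb of exon), so that it stood 1188th among all genes in ctrl and 52nd in M2. This is a 15.4-fold rise, a log2 difference of 3.95 (95% interval 3.90 to 3.99), and the reads listed for Trf were 0.222% of all listed M2 reads. Trf shares 63.5% of its exon length with a gene on the same strand, Gm20425, which was listed with 4877 and 65999 reads, and the reads of these genes cannot be told apart. Trf was followed by Steap4, a metalloreductase that reduces iron and copper (chromosome 5, 7960457 to 7982213). Steap4 counted 2409 reads in ctrl against 18569 in M2, and its log2 difference was 2.88 (95% interval 2.82 to 2.94). Its relatives stayed low, since Steap1 had 11 and 29 reads, Steap2 333 and 404, and Steap3, the reductase of the transferrin cycle in red cell precursors, 144 and 185. Of these 3 genes only Steap1 was called, at a log2 difference of 1.25 with an interval of 0.29 to 2.48. In the M2 library Steap4 stood at 204 RPKM, and Steap1, Steap2 and Steap3 at 0.731, 1.15 and 1.12.

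The transferrin receptor differed less than its ligand. Tfrc, which takes up iron-loaded transferrin, counted 3850 reads in ctrl against 5109 in M2, or on the log2 scale 0.34 (95% interval 0.28 to 0.40), and was not called. Per length, Trf exceeded Tfrc 1.95 times in ctrl and 23.8 times in M2, a log2 change of the ratio of 3.61 (3.53 to 3.68). Slc11a2, which carries ferrous iron across membranes, had 804 and 1719 reads and a log2 difference of 1.03 (0.91 to 1.15). It lay at the 2-fold threshold and was not called when library totals were used for scaling, at 0.97. All 7 carrier and import genes had a positive difference, with a median of 1.03. Of them, 4 were called higher (57.1%, against 8.16% of all genes tested) and 0 lower (against 6.55%). These calls include Slc11a2 at the threshold and Steap1 with few reads.

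The iron export genes Slc40a1 and Cp moved in opposite directions. Ferroportin, the iron exporter encoded by Slc40a1 (chromosome 1, 45908068 to 45926523), fell from 2160 reads to 893, which is -1.34 on the log2 scale (95% interval -1.46 to -1.23). It was the only member called lower. Cp, the ferroxidase that works with ferroportin (chromosome 3, 19957054 to 20009145), rose from 5013 reads to 28125, which is 2.42 on the log2 scale (2.38 to 2.46). Hephaestin (Heph), the membrane-bound ferroxidase, had 509 and 412 reads and was not called, whereas its low relative Hephl1 had 5 and 26 reads and was called higher. Hamp, which encodes the hormone hepcidin that removes ferroportin from the membrane, had no read.

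The ferritin subunits were among the most abundant members. Fth1, the heavy subunit that oxidises iron, counted 13050 reads in ctrl against 26171 in M2, or on the log2 scale 0.93 (95% interval 0.90 to 0.97), which is 1.91-fold and just under the threshold. Ftl1, the light subunit, had 7425 and 9211 reads and a difference of 0.24 (0.20 to 0.29). The ratio of Fth1 to Ftl1 per length went from 2.72 to 4.40, a log2 change of 0.69 (0.64 to 0.75, counting error only). Ferritin genes have many pseudogene copies, and adding the named ones left the differences at 0.93 for Fth1 and 0.24 for Ftl1. Ftl1 also shares exon bases with Gm10252 and Gm22133, so its value is less certain. The iron regulatory proteins, which bind the mRNAs of ferritin and Tfrc when iron is scarce, were not called. Aco1 had 2205 and 2732 reads and differed by 0.24, and Ireb2 had 2572 and 2864 reads and differed by 0.09.

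**Figure D2:**
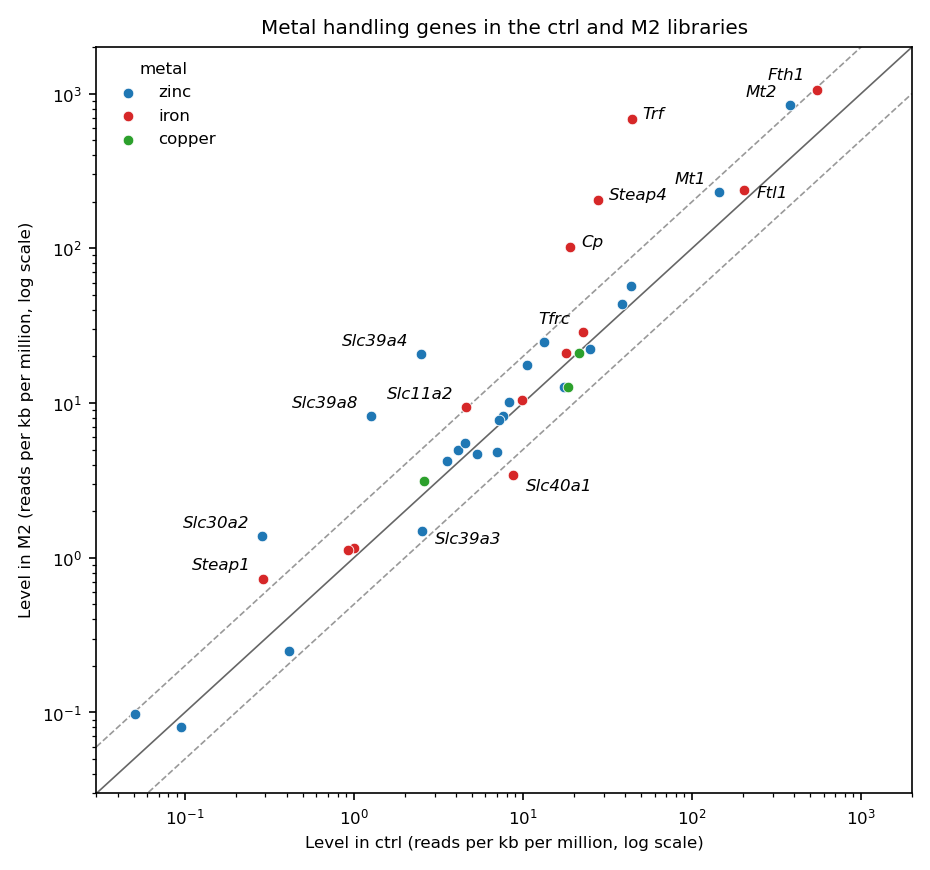
Level of each member with at least 1 read in both libraries, in ctrl (horizontal axis) and M2 (vertical axis), in RPKM on log axes, with 1 library per group. The solid line marks equal levels and the dashed lines 2-fold differences. Trf, Steap4 and Cp lie far above the upper dashed line, Slc39a4 and Slc39a8 do so at lower levels, and Slc40a1 lies below the lower one.

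In the zinc importer family, Slc39a4 and Slc39a8 rose in M2 and were the only ones called. Slc39a4 encodes ZIP4, the importer that takes up dietary zinc in the gut (chromosome 15, 76612385 to 76616852). It rose from 153 reads to 1332, which is 3.04 on the log2 scale (95% interval 2.81 to 3.30). Slc39a8 encodes ZIP8, which carries zinc, iron and manganese (chromosome 3, 135825279 to 135888572). It rose from 265 reads to 1814, which is 2.70 on the log2 scale (2.52 to 2.90). Slc39a14, which encodes ZIP14, the closest relative of ZIP8 and also an iron carrier, had 3072 and 5378 reads and differed by 0.74, which was not called. Slc39a6, which encodes ZIP6, had 1484 and 2898 reads and a difference of 0.90, also not called.

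The other importers lay between -0.76 and 0.39 on the log2 scale. Slc39a7, a zinc channel of the endoplasmic reticulum, and Slc39a1, a plasma membrane importer, had the highest levels of the family in ctrl, at 43.3 and 38.5 RPKM. They differed by 0.39 and 0.17, with 3086 and 4254 reads for Slc39a7 and 2501 and 2957 for Slc39a1. Slc39a7 shares 80.1% of its exon length with Gm20427 on the same strand. Negative log2 differences, none of them called, were found for Slc39a9 (-0.47, 2518 and 1912 reads), Slc39a11 (-0.54, 651 and 469 reads) and Slc39a3 (-0.76, 279 and 172 reads). Slc39a10 had 1274 and 1452 reads, Slc39a13 had 551 and 698, and they differed by 0.12 and 0.27. Slc39a2 (9 and 8 reads) and Slc39a1-ps (11 and 7 reads) were too low for a precise value. Of 13 tested importer rows, 2 were called higher (15.4%, against 8.16% of all genes tested) and 0 lower (against 6.55%), and the median log2 difference was 0.17. The summed level of the family per length was 148.9 in ctrl and 204.4 in M2, 1.37-fold.

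Among the zinc exporters, Slc30a2 was the only one called. It encodes ZnT2, the vesicular transporter that loads zinc for milk secretion (chromosome 4, 134343181 to 134354484). Slc30a2 rose from 28 reads to 141, which is 2.22 on the log2 scale (95% interval 1.67 to 2.90), but its level in M2 was only 1.37 RPKM. The other 6 tested exporters differed by -0.20 to 0.29. Slc30a5, which loads zinc into the secretory pathway, had the highest level of the family, at 25.0 and 22.4 RPKM, with 2180 and 2048 reads. Slc30a9, Slc30a7 and Slc30a4 had 2812 and 3602, 1393 and 1765, and 1093 and 1233 reads. Slc30a6, the partner of Slc30a5, had 320 and 292 reads. Slc30a1, the zinc exporter of the plasma membrane, had 514 and 638 reads and differed by 0.24. Of 7 tested exporters, 1 was called higher (14.3%, against 8.16% of all genes tested) and 0 lower (against 6.55%). The summed level of exporters per length was 54.3 and 56.1, 1.03-fold.

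The metallothioneins Mt2 and Mt1 were higher in M2, and only Mt2 was called, 1 of 2 tested (50%, against 8.16% of all genes tested). Mt2 (chromosome 8, 94172664 to 94173568) counted 6111 reads in ctrl against 14194 in M2, or on the log2 scale 1.15 (95% interval 1.10 to 1.19). Mt1 (chromosome 8, 94179082 to 94180327) had 4928 and 8300 reads and differed by 0.68 (0.63 to 0.73). Per length, Mt2 exceeded Mt1 2.63 times in ctrl and 3.62 times in M2. These ratios depend on the annotated exon lengths, 588 bases for Mt2 and 1246 for Mt1. The Mt1 length covers its whole span, and by reads alone the 2 genes lie closer. Mt1 and Mt2 are close copies that could exchange reads, and 73.5% of the Mt2 exon length lies opposite to RP23-98C9.5, which was listed with 5616 and 12989 reads. The use of strand is not given in the sources used here, so Mt2 and this antisense gene cannot be told apart.

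Metallothionein genes and Slc30a1 are known targets of MTF-1, the zinc-sensing factor that binds metal response elements. Its own gene Mtf1 had 846 and 787 reads and differed by -0.17, which was not called. The promoters of these genes are shown because all respond to zinc in many cells. Their differences here were 1.15 for Mt2, 0.68 for Mt1 and 0.24 for Slc30a1. The sequences are from RefSeq on GRCm38.p6, plus strand, 5′ to 3′, and run from 250 bases before the RefSeq start through the first 30 bases after it. They cover chr8:94172368-94172647 for Mt2, chr8:94178839-94179118 for Mt1 and chr1:191906531-191906810 for Slc30a1. Capitals mark matches to the core of the metal response element, searched as TGCACNC and TGCGCNC on both strands, which may overlap each other.
Mt2: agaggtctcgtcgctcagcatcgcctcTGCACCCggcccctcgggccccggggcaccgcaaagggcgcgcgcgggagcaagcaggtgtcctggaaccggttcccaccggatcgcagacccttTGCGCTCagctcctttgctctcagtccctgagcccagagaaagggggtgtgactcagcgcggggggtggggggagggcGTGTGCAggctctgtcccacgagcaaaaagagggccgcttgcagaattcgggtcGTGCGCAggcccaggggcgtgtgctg
Mt1: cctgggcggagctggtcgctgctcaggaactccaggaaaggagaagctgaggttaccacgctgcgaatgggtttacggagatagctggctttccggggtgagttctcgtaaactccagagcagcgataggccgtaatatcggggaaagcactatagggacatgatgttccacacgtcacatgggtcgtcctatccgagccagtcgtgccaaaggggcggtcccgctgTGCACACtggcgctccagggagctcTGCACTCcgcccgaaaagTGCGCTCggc
Slc30a1: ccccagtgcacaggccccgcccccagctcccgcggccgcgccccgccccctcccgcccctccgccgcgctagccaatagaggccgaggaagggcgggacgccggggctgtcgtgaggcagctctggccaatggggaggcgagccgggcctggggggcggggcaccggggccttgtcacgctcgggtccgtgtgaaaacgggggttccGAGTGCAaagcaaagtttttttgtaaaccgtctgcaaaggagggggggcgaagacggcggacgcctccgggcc

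Counted from the RefSeq start as base 1, the Mt1 matches began at -23, 3 and 21, and those of Mt2 at -223, -128, -50 and 5. Slc30a1 had a match at -43, and a second at 31 lay beyond the part shown. Over the whole window of 300 bases, Mt2 thus held 4 matches, Mt1 3 and Slc30a1 2. These positions and counts hold for the RefSeq starts used. Other starts of these genes and bases beyond the windows were not searched, so further elements may lie outside them. Of all 32851 promoter windows in the table, 25.7% held at least 1 match and 1.97% held at least 3. Windows were found for 39 of the 47 members. Of their 52 windows 44.2% held a match, and 4 held at least 3, namely those of Mt1, Mt2, Slc30a10 and Slc30a4. Of the other members called higher, Slc30a2 held 2 matches, Steap1 1 and Atp7b 1, 1 of the 2 windows of Slc39a8 held a single match, and the windows of Steap4 and Cp held 0. For Trf, Slc39a4, Slc11a2 and Slc40a1 no window was matched. Slc30a4, with 3 matches like Mt1, differed by only 0.10 on the log2 scale. Whether the number of matches goes with the difference of a gene was not tested. A match describes the letters of a window and does not show that MTF-1 binds there.

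Of the copper transport genes, only Atp7b was called, and it passed the filter of 10 reads through the M2 library alone. Atp7b encodes a copper-exporting ATPase and counted 0 reads in ctrl against 15 in M2. This is 4.77-fold when set against the 3 reads that a count of 0 allows in ctrl, leaving out the counting error of the M2 reads. The lower 95% counting limit of its log2 difference was 1.77. Atp7a, the related ATPase that loads copper into the secretory pathway, had 621 and 785 reads and differed by 0.27 (95% interval 0.12 to 0.42). Slc31a1, the high-affinity copper importer CTR1, had 2508 and 2613 reads and differed by -0.01 (-0.09 to 0.07). Slc31a2, the related CTR2, had 1027 and 745 reads and differed by -0.53 (-0.67 to -0.39), which was not called. Of 4 tested copper transport genes, 1 was thus called higher (25%, against 8.16% of all genes tested) and 0 lower (against 6.55%). The summed level of the copper genes per length was 42.3 in ctrl and 37.1 in M2.

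To place the members among related genes, 62 further genes of iron, heme, copper and zinc handling were listed, and 58 of them could be tested. Of these, 9 were called higher (15.5%, against 8.16% of all genes tested) and 2 lower (3.45%, against 6.55%), and their median log2 difference was -0.07. In the iron and heme list, 5 of 34 tested genes were called higher (14.7%, against 8.16% of all genes tested) and 0 lower (against 6.55%). Hp, which encodes the hemoglobin scavenger haptoglobin, rose from 1007 reads to 17485, which is 4.05 on the log2 scale (95% interval 3.96 to 4.14). Lcn2, which encodes lipocalin-2, a binder of iron-carrying siderophores, rose from 12343 reads to 76343, which is 2.56 on the log2 scale (2.53 to 2.59). Ltf, which encodes the milk and neutrophil iron binder lactoferrin, rose from 271 reads to 2133, which is 2.90 on the log2 scale (2.72 to 3.10). The scavenger receptor gene Cd163 had 2 and 30 reads and differed by 3.30 (1.86 to 6.95). Cd163 and Hephl1 had too few reads to be tested when at least 1 CPM was required in both libraries. The same held for S100a8 and S100a9 of the zinc list, and 5 of the 9 genes called higher remained. The share of 15.5% thus includes genes with very few reads in ctrl. At that filter 797 of all genes were called higher, out of fewer genes tested.

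The other 29 tested genes of the iron and heme list were not called. Their log2 differences ran from -1.07 for Tmprss6, a protease that lowers hepcidin production (7 and 3 reads), to 0.84 for Hpx, which encodes the heme carrier hemopexin (7 and 14 reads). Of these genes, 22 had a negative and 7 a positive difference. Slc22a17, a receptor of lipocalin-2, had 347 and 195 reads and differed by -0.90. The receptor gene Lrp1 differed by -0.39, the heme exporter gene Flvcr1 by 0.41 and the heme and folate carrier gene Slc46a1 by -0.31. Hmox1, which encodes the heme-degrading enzyme, had 1073 and 922 reads and differed by -0.29. Ncoa4, which directs ferritin to degradation, differed by 0.19, and the ferritin receptor gene Scara5 by -0.10.

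In the copper list, 2 of 18 tested genes were called higher (11.1%) and 1 lower (5.56%), shares near the 8.16% and 6.55% of all genes tested. Loxl2, a copper-dependent collagen cross-linking enzyme, rose from 139 reads to 929, which is 2.66 on the log2 scale (95% interval 2.41 to 2.94), and Sod3, the extracellular superoxide dismutase, from 45 to 142 reads. Aoc3, a copper amine oxidase of the cell surface, fell from 292 reads to 45, which is -2.74 on the log2 scale (-3.25 to -2.31). The copper chaperones Atox1 (404 and 647 reads) and Cox17 (447 and 781 reads) differed by 0.61 and 0.73 and were not called. In the zinc list, S100a8 and S100a9, which encode the zinc-binding calprotectin, had 1 read each in ctrl and 44 and 47 in M2, with log2 differences of 4.42 (2.84 to 10.73) and 4.52 (2.94 to 10.82). With so few reads in ctrl these values move with the pseudocount, to 2.96 and 3.05 with 5 reads and to 4.82 and 4.92 with 0.5 reads. Tmem163, a vesicular zinc transporter, fell from 119 reads to 45, which is -1.45 on the log2 scale.

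**Figure D3:**
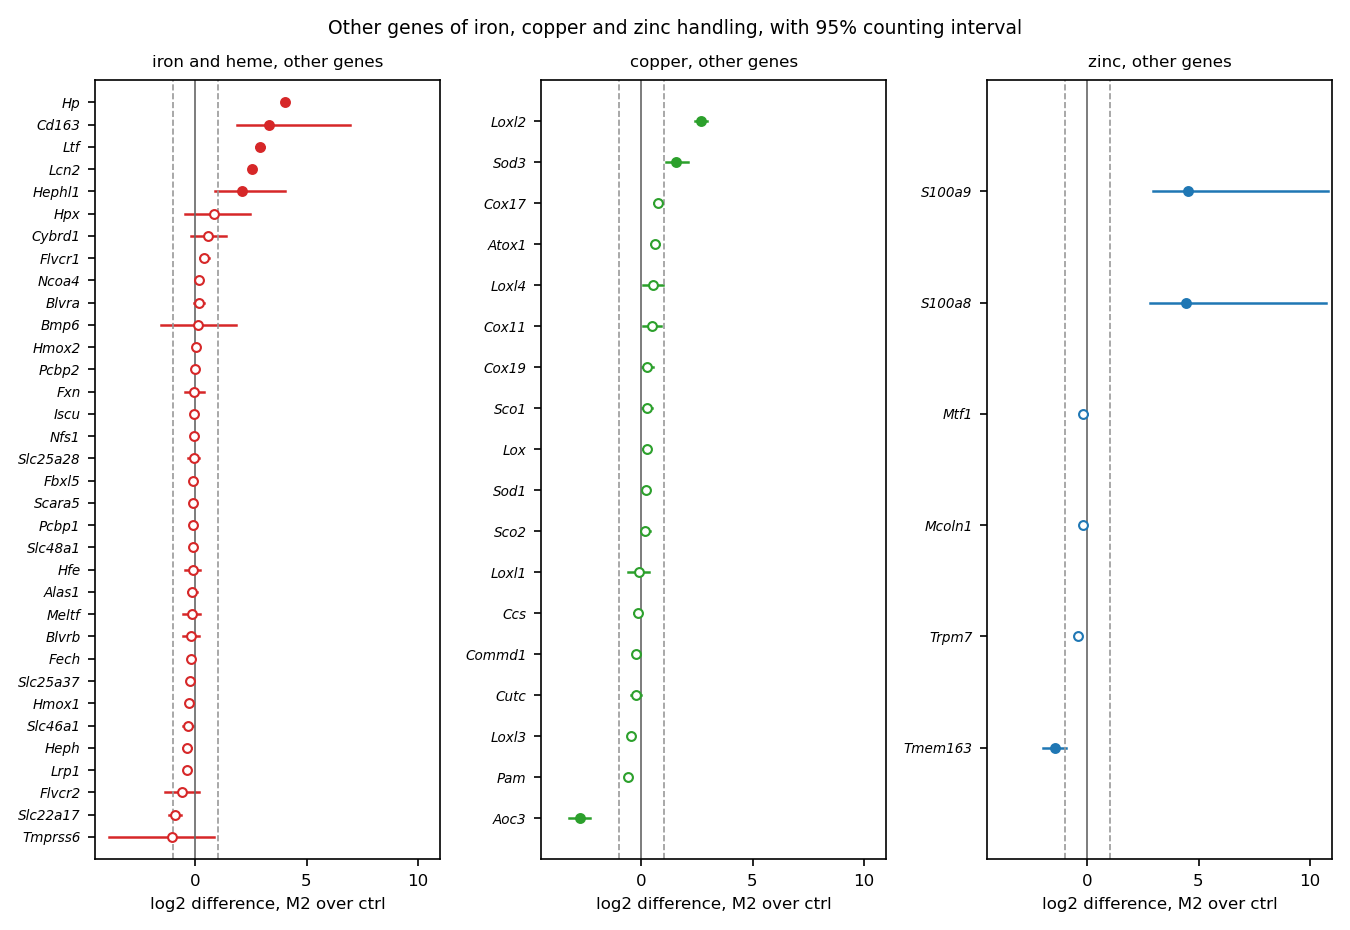
Log2 difference (M2 over ctrl, horizontal axis) of the 58 tested genes of iron and heme, copper and zinc handling outside the members. Points stand for 1 library per group, bars are 95% counting intervals, filled points passed both thresholds, and dashed lines mark a 2-fold difference. S100a9, S100a8, Hp, Cd163, Ltf, Loxl2 and Lcn2 lie farthest to the right, and most other points lie between the dashed lines.

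The calls above take account of counting error only, which is small for the genes with many reads and large for Steap1, Atp7b, Hephl1, Cd163, S100a8 and S100a9. With a coefficient of variation between cultures assumed to be 0.2 in the exactTest of edgeR, 7 of the 39 tested members were called higher and 1 lower. Mt2, Slc11a2 and Steap1 were no longer called. At this setting 964 of the 19233 genes tested were called higher and 691 lower. With 0.4, 2 members were called higher, namely Trf and Slc39a4, and 0 lower, against 175 and 130 of all genes tested.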

How the data were processed

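RNA of 1 ctrl and 1 M2 culture was sequenced. The table that the authors deposited gives unnormalized counts of reads for 49492 genes. A column kit served for RNA, per the labels, and libraries were prepared with a SMARTER kit, whereas the study's methods name RNAiso Plus and a HiSeq sequencer. The submitters' processing notes name GRCm38 (mm10), and the coordinates are those of the table. The column layout is that of featureCounts, but the aligner, the counter, the use of strand and the filters are not given in the sources used here. Genes that overlap were listed with nearly equal counts (Trf and Gm20425), so a read could count for more than 1 gene.

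Library sizes were scaled with TMM in edgeR 4.0.16 (R 4.3.3), with factors of 1.02 for ctrl and 0.980 for M2. Genes with at least 10 reads summed (19233) entered an exact binomial test, two-sided (scipy 1.17.1), with p-values adjusted by the Benjamini-Hochberg method over all of them. The log2 difference used a pseudocount of 1 read, and its 95% interval came from the Clopper-Pearson limits of the M2 share. The depth of 26912610 and 29413844 reads makes counting error small for genes with many reads, but intervals and floors cover nothing else, and with 1 library per group no spread between cultures could be estimated. Levels between genes were compared per kb of exon length.

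The functions were tested on simulated data. The 47 members and all gene lists were chosen with earlier results of these data known. Named genes were all members, in full when called with at least 100 reads or when Mt1, Fth1, Ftl1 or Tfrc, and up to 12 called genes of the related lists. Related genes named although not called were chosen after their values were seen. Meltf, Flvcr1, Flvcr2 and Hjv were matched through RefSeq synonyms. Alternatives were library totals, DESeq2 1.42.0 and upper-quartile scaling, other pseudocounts, filters and fold thresholds, and the exactTest of edgeR with an assumed coefficient of variation.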

Additional observations from a re-analysis of the deposited data

How the results depend on the processing

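Across 38 members and 11 related genes with reads in both libraries, no direction changed. Under DESeq2 and upper-quartile scaling, pseudocounts of 0.5 and 5 and a minimum of 1 read, all 49 kept their side of the thresholds, as did the 42 that could be evaluated at 1 CPM. The sizes for S100a8, S100a9 and Cd163, with 1 or 2 reads in ctrl, moved with the pseudocount, for Cd163 from 3.54 with 0.5 reads to 2.25 with 5. With library totals Slc11a2 (0.97) lost its call. With at least 1 CPM in both libraries, 797 genes were called higher and 583 lower, 8 members and 5 related genes higher, and 1 member and 2 related genes lower. At a 4-fold threshold, 616 and 494 genes were called, 7 members and 8 related genes higher, and 0 members and 1 related gene lower. In the exactTest of edgeR with an assumed coefficient of variation of 0.2, 964 and 691 genes were called, against 1570 and 1260. With 0.4, 175 and 130 genes, 2 members higher and 0 lower, and 3 related genes higher and 0 lower were called. Many of the 49 genes had no call to lose. Of those that were called, 16 lost their call at 0.4, and only Trf, Slc39a4, Hp, S100a8 and S100a9 kept it. With 0.1, chosen after the data were seen, only Steap1 lost its call among the members. Fewer genes can be tested with the CPM filter. A single library per group cannot give the coefficient of variation. No paired analysis was possible because ctrl and M2 are single libraries.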
